A study of Mus musculus with 8 samples.

Results

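The 10 genes described here encode proteins of the tight junction: the claudins Cldn3, Cldn6, Cldn9, Cldn10, Cldn11 and Cldn14, occludin (Ocln), the tricellular junction proteins tricellulin (Marveld2) and angulin-2 (Ildr1), and the scaffold protein ZO-1 (Tjp1). They were chosen by name from the 27998 genes listed in the files, and all 10 were found there. Their levels were followed in 5 epithelial cell classes of the mouse organ of Corti, across 8 single-cell RNA-seq libraries.

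A tight junction seals neighbouring epithelial cells near their apical surface, and the claudins in its strands set which ions can pass between the cells. Where 3 cells meet, angulins such as ILDR1 recruit tricellulin to close the remaining gap, while ZO-1 ties the strands to the actin cytoskeleton. In the cochlea these junctions keep the potassium-rich endolymph, which bathes the tops of the hair cells and one face of Reissner's membrane, apart from the perilymph around the cell bodies. CLDN9, CLDN14, MARVELD2 and ILDR1 are known from inherited deafness in mice or people.

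The genome annotation (GRCm38.p6, of the mm10 generation used for the files) places Cldn6 (ENSMUSG00000023906) at chromosome 17, 23679348 to 23682446, and Cldn9 (ENSMUSG00000066720) at 23682584 to 23684026 of the same chromosome, with 137 bases between them. A read of one gene's end could therefore have been assigned to its neighbour, which was not tested. Ocln (ENSMUSG00000021638; 100496504 to 100552718) and Marveld2 (ENSMUSG00000021636; 100595957 to 100616971) also lie near each other, on chromosome 13, with 43238 bases between them. Cldn3 (ENSMUSG00000070473) is on chromosome 5, from 134986214 to 134987476, and Cldn11 (ENSMUSG00000037625) on chromosome 3, from 31149920 to 31164326. Cldn10 (ENSMUSG00000022132) spans 118787871 to 118874525 of chromosome 14, and Tjp1 (ENSMUSG00000030516) spans 65296165 to 65527850 of chromosome 7. Chromosome 16 holds Ildr1 (ENSMUSG00000022900) at 36693978 to 36726804 and, far from it, Cldn14 (ENSMUSG00000047109) at 93919031 to 94008837. A count covers all transcripts of a gene, read near their 3′ ends.

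All mice carried 4 alleles, spelled Fgfr3iCre+, Atoh1-HA+, Chrna9-GFP+ and Rosa26-CAG-loxP-stop-loxP-tdTomato+. The inducible Cre acts mainly in Deiters' and pillar cells, the supporting cells next to the outer hair cells, and switches on the hair cell transcription factor Atoh1 there, so that some of these cells turn into converted hair cells (cHCs). Coch + Tmx P26 (n = 3 libraries) and Coch + Tmx P33 (n = 2) came from mice given tamoxifen at P12 and P13 and collected at postnatal day 26 or 33, whereas Coch P12 (n = 2) and Coch P33 (n = 1) received none. Between Coch + Tmx P33 and Coch P12, age and induction change together and cannot be told apart. The labels do not say how many animals went into a library, so the p-values below concern libraries and not animals. They weigh a difference against a spread between libraries that the test shares in part over genes.

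Of 8061 barcodes, 5970 passed as cells, with 3972800 to 13423524 unique molecular identifiers (UMIs, each 1 captured RNA molecule) per library. The cells formed 34 clusters, which were named here from marker genes, with the 10 members and the other junction genes kept out of the clustering. The classes used were cHC-like (114 cells), hair cell-like (HC-like, 62), supporting cell-like (SC-like, 129), Reissner membrane-like (296) and nonsensory epithelial-like (461 cells in 3 clusters). The cHC-like cells had a summed level of 5214 to 7041 CPM (the UMIs of a gene scaled to the same total in each sum) of 10 converted hair cell markers, against 192 to 539 for the 10 markers of mature hair cells. The nonsensory epithelial-like cells held supporting cell markers at 19930 to 41550 CPM, a range that overlaps that of the SC-like cells (21410 to 45210), so the 2 classes differ in their other markers. The third Coch + Tmx P26 library stands apart, since it held no cHC-like cells while the other 4 tamoxifen libraries held 6 to 41.

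Levels are CPM of the UMIs summed over a class within a library, given where a library held at least 5 cells of the class. That leaves 4 libraries for the cHC-like cells (2 each of Coch + Tmx P26 and P33), 4 for the HC-like cells (2 each of Coch + Tmx P33 and Coch P12), 6 for the SC-like cells and 8 each for the Reissner membrane-like and nonsensory epithelial-like cells. The 3′ libraries count molecules and need no correction for transcript length. Macrophage-like cells, which form no tight junctions, served as a measure of free RNA, and held Cldn3, Cldn6, Cldn9, Cldn14, Ocln, Marveld2 and Ildr1 at means between 0 and 8.68 CPM. Tjp1 (30.9 CPM) and Cldn11 (52.8 CPM) were higher in these cells.

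Among the claudins, Cldn9, which limits the passage of sodium ions, was the most abundant member in each of the 5 classes. In SC-like cells it ran from 835 CPM in the second Coch P12 library to 2669 in the first Coch + Tmx P33 library, with a median of 974. In nonsensory epithelial-like cells the lowest, median and highest values were 316, 784 and 1608 CPM, and in Reissner membrane-like cells 177, 289 and 473. The class means therefore ran from 1324 ± 716 (SD, n = 6) in SC-like cells down to 316 ± 99.4 (n = 8) in Reissner membrane-like cells, but no neighbours in that order were free of overlap. The 2 Coch + Tmx P33 libraries gave the HC-like cells 1240 and 1037 CPM and the 2 Coch P12 libraries gave them 489 and 611. The cHC-like cells had 910.2 and 614 CPM at P26 and 441 and 591 at P33. Each cell class held more Cldn9 than the macrophage-like cells, whose mean was 8.68 CPM.

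Cldn6, a claudin best known from embryonic epithelia, lies next to Cldn9 and was far scarcer. In SC-like cells it stood at 76.8 and 51.3 CPM in the Coch + Tmx P33 libraries, 10.4 in the third Coch + Tmx P26 library, 2.50 and 0 at Coch P12 and 0 at Coch P33. The cHC-like cells held 35.4 and 34.1 CPM at P26 and 6.53 and 16.5 at P33. A Coch + Tmx P26 library with 3 SC-like cells, too few to be used, held 5 UMIs in them. In the HC-like cells 3 of the 4 libraries had no UMI and the other held 1. Reissner membrane-like and nonsensory epithelial-like cells averaged 13.9 ± 8.44 and 13.7 ± 10.0 CPM (SD, n = 8 each). Because the SC-like values spread from 0 to 76.8, the order of the classes for Cldn6 does not hold beyond the spread between libraries.

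Cldn14, which limits the passage of cations and is known for the survival of hair cells, divided the sensory epithelium from Reissner's membrane. In SC-like cells the lowest, median and highest values were 127, 153 and 194 CPM. The HC-like cells had 117 and 117 CPM at Coch + Tmx P33, below that range, and 142 and 149.6 at Coch P12, within it. The cHC-like cells were more spread, at 53.0 and 90.9 CPM at P26 and 171 and 119 at P33. Nonsensory epithelial-like cells ran from 53.2 to 109 CPM, whereas no Reissner membrane-like sum exceeded 28.0. Cldn14 was 1 of 3 members with a gap between neighbouring classes, here between the nonsensory epithelial-like and the Reissner membrane-like cells. The share of all genes with such a gap was not counted, so nothing is read from the number of members.

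Cldn3, a barrier-forming claudin of many simple epithelia, followed another order. Its means were 262 ± 155 CPM in nonsensory epithelial-like cells, 219 ± 75.2 in cHC-like cells and 219 ± 22.0 in Reissner membrane-like cells, and then 74.3 ± 54.6 in SC-like and 48.3 ± 41.6 in HC-like cells (SD, n = 8, 4, 8, 6 and 4). The Reissner membrane-like values lay above each of the SC-like values, whereas the lowest cHC-like and nonsensory epithelial-like values were within the SC-like range. The cHC-like cells had 245 and 171 CPM at P26 and 149 and 314 at P33, and the HC-like cells 84.8 and 81.1 at Coch + Tmx P33 and 27.4 and 0 at Coch P12. At a depth of 1000 UMIs per cell, a Cldn3 UMI was found in 24.6% of cHC-like cells, 9.30% of SC-like and 1.61% of HC-like cells, against 0 of 560 macrophage-like cells. Without thinning the shares were 86.8%, 52.7% and 17.7%, at median depths of 12960, 14210 and 7283 UMIs per cell.

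Cldn11, which forms the barrier of the stria vascularis and of myelin sheaths, was highest among the 5 classes in Reissner membrane-like cells, at 48.4, 95.2 and 232 CPM (lowest, median and highest). Nonsensory epithelial-like cells gave 7.87, 30.3 and 94.0 CPM, and SC-like cells 0, 22.8 and 50.6. The macrophage-like cells reached 196.9 CPM in the first Coch + Tmx P33 library, with 39 of their Cldn11 UMIs in 1 cell. Within a library, the Reissner membrane-like cells exceeded the macrophage-like cells in 6 of 8 libraries and the nonsensory epithelial-like cells did so in 5 of 8, so in the remaining libraries the Cldn11 level was no higher than in macrophage-like cells. The 6 Schwann or glial markers summed to between 234 and 1900 CPM in the Reissner membrane-like cells and to between 94.8 and 1662 in the SC-like cells, and the second Coch P12 library, with the highest Cldn11, held the 1900 CPM. An unnamed cluster led by Dcn, Hgd and Gpr83, described at the end, held far more Cldn11 than any of the 5 classes. The part of glial transcripts, or of those of this cluster, in the Cldn11 level was not tested.

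Cldn10, the claudin of paracellular ion channels in kidney and glands, was close to absent. It had no UMI in cHC-like, HC-like or Reissner membrane-like cells, and its 11 UMIs in SC-like cells came from 3 cells of the first Coch P12 library. Nonsensory epithelial-like cells held 19 UMIs, no more than 1 in any cell, but in each of the 8 libraries, at a mean of 4.11 ± 2.24 CPM (SD).

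**Figure D1:**
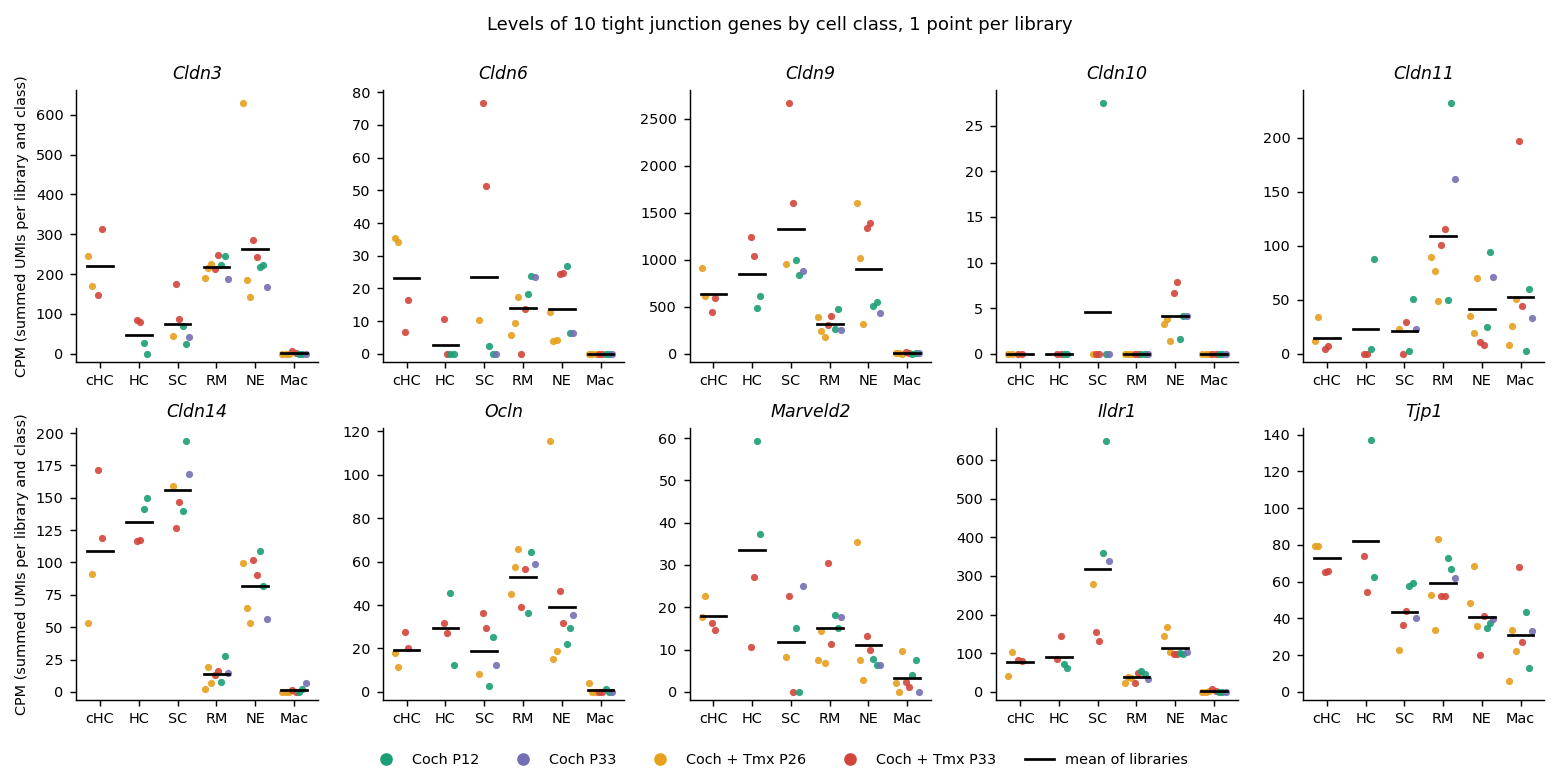
Levels of the 10 genes in CPM on linear axes, 1 panel per gene, in cHC-like, HC-like, SC-like, Reissner membrane-like (RM), nonsensory epithelial-like (NE) and macrophage-like (Mac) cells, with 1 point for each library and class of at least 5 cells, coloured by group, and a bar at the mean over libraries. Among the 5 epithelial classes Cldn14 and Ildr1 sit lowest in Reissner membrane-like cells, where Cldn14 does not pass 28.0 CPM, whereas Cldn3 is low in SC-like and HC-like cells and Cldn10 is near 0 in all sums but 1 (27.5 CPM).

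Of the proteins of the 3-cell contact, Ildr1 was the more abundant. In SC-like cells it stood at 278 CPM in the third Coch + Tmx P26 library, 154 and 132 at Coch + Tmx P33, 360.0 and 649.7 at Coch P12 and 339 at Coch P33. The cHC-like cells had 41.2 and 102 CPM at P26 and 83.2 and 78.9 at P33, and the HC-like cells 84.8 and 144 at Coch + Tmx P33 and 73.1 and 62.3 at Coch P12. The nonsensory epithelial-like cells lay between 97.2 and 167 CPM and the Reissner membrane-like cells between 21.8 and 54.7. Those 2 classes did not overlap, but the share of all genes without overlap was not counted. Of the 5 classes only the SC-like cells passed 167 CPM, and they did so in 4 of their 6 libraries. At 1000 UMIs per cell, 26.4% of SC-like cells and 3.04% of Reissner membrane-like cells held an Ildr1 UMI, against 0.357% of macrophage-like cells (90.7%, 28.7% and 1.43% without thinning).

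Marveld2 was sparse throughout. The HC-like cells gave 10.6 and 27.0 CPM at Coch + Tmx P33 and 59.4 and 37.4 at Coch P12, and the cHC-like cells 17.7 and 22.7 at P26 and 16.3 and 14.7 at P33. SC-like cells ran from 0 to 25.1 CPM, Reissner membrane-like cells from 6.92 to 30.6 and nonsensory epithelial-like cells from 2.87 to 35.4. HC-like cells had the highest mean, 33.6 ± 20.4 CPM (SD, n = 4) from 20 UMIs, yet their range overlapped that of each other class.

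Ocln, a strand protein that is present beside the claudins in most tight junctions, averaged 53.0 ± 11.3 CPM in Reissner membrane-like cells and 19.0 ± 13.2 in SC-like cells (SD, n = 8 and 6). The nonsensory epithelial-like cells spread from 15.2 to 116 CPM. The cHC-like values were 17.7 and 11.4 CPM at P26 and 27.8 and 20.2 at P33, and the HC-like values 31.8, 27.0, 45.7 and 12.5. Tjp1 varied least between classes, with means from 40.7 ± 13.8 CPM in nonsensory epithelial-like cells to 81.9 ± 37.7 in HC-like cells, and its macrophage-like mean of 30.9 CPM was not far below. The 4 cHC-like sums of Tjp1 lay between 65.3 and 79.6 CPM, above each of the 6 SC-like sums, which ran from 23.0 to 59.1.

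Classes were then compared within libraries by edgeR's quasi-likelihood test on the summed UMIs, with the library as a block and Benjamini-Hochberg adjustment over all genes tested. The question for the first of these comparisons was how the converted cells differ from the supporting cells from which they arise. Only the 2 Coch + Tmx P33 libraries held at least 5 cells of both classes, which leaves 1 residual degree of freedom. The SEs and p-values of fits on these 2 libraries lean on a spread shared over all genes, more than on that of the gene itself. Of the 10 members 7 had enough counts, 0 were higher and 3 were lower in cHC-like cells, where 38.0% of all 5780 genes tested were called (20.9% higher and 17.1% lower). Cldn9 was lower (log2 fold change -2.03 ± 0.21, SE, adjusted p = 1.1e-19), at 441 and 591 CPM in cHC-like against 2669 and 1604 in SC-like cells. Cldn6 differed by -2.54 ± 0.59 (adjusted p = 1.0e-04), from 13 UMIs against 24. Ildr1 differed by -0.82 ± 0.33 (adjusted p = 0.034). Both libraries showed all 3 differences. The median share of mitochondrial UMIs was 10.7% in cHC-like, 14.5% in HC-like and 5.56% in SC-like cells. With cells under 10% only, the Cldn9 difference was -0.95 (adjusted p = 0.019), Ildr1 (-1.12, adjusted p = 0.10) was not called, Cldn6 had too few counts and Cldn3 (1.07, adjusted p = 0.043) was called, and the part of the mitochondrial share in these differences was not tested.

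These calls rest on SC-like cells of the Coch + Tmx P33 libraries, in which Cldn9 and Cldn6 were higher than in any other SC-like sum of at least 5 cells. In 1 joint fit of the 5 classes over all libraries, the Cldn6 difference was -0.30 (adjusted p = 0.83), and it turned positive (0.26 and 1.41) when either Coch + Tmx P33 library was left out. Cldn9 (-1.65) and Ildr1 (-1.86) stayed lower in that joint fit (adjusted p = 5.9e-05 and 1.2e-04), and Cldn3 (1.22, adjusted p = 0.0079) and Tjp1 (0.96, adjusted p = 0.020) were higher in it. The call of Tjp1 was lost without either Coch + Tmx P33 library and that of Cldn3 without the second. DESeq2 called Cldn9 alone of the members. DESeq2 called 407 genes in all against 2195 by edgeR. Within the 2 libraries, the other members tested were Cldn3 (log2 fold change 0.62, adjusted p = 0.082), Tjp1 (0.74, 0.20), Cldn14 (0.12, 0.80) and Ocln (-0.43, 0.63).

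Against HC-like cells of the same 2 libraries, the cHC-like cells were higher in Cldn3 and lower in Cldn9. Cldn3 stood at 149 and 314 CPM against 84.8 and 81.1, which is 1.56 ± 0.39 on the log2 scale (edgeR, adjusted p = 0.011), and Cldn9 at 441 and 591 against 1240 and 1037, or -1.04 ± 0.22 (adjusted p = 0.0039). These are 2 of the 5 members tested, beside 21.2% of the 5550 genes tested (10.5% higher and 10.7% lower). Cldn14 (0.40, adjusted p = 0.50), Ildr1 (-0.40, 0.54) and Tjp1 (0.15, 0.86) did not pass. Neither call was made by DESeq2 or with libraries of at least 3 cells included, and in the joint fit Cldn3 passed and Cldn9 did not (adjusted p = 0.19). The HC-like side rests on 7 cells in each library.

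Between HC-like and SC-like cells (4 libraries), 4 members could be tested and 0 passed in edgeR, where 26.2% of the 2045 genes tested did (15.3% higher in HC-like cells). The 2 with an unadjusted p under 0.05 were Ildr1 (-1.49 ± 0.52, adjusted p = 0.071) and Cldn9 (-0.70 ± 0.24, adjusted p = 0.066), and Cldn3 differed by -0.85 ± 0.43 (adjusted p = 0.18). Cldn9 and Cldn3 were lower in the HC-like cells of each of the 4 libraries and Ildr1 in 3 of 4. DESeq2 called 0 of the members. Cldn14 differed by -0.06 ± 0.23, with values in the 2 classes that overlapped.

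Reissner membrane-like cells, which separate endolymph from the perilymph of the scala vestibuli, differed from SC-like cells in 6 of the 7 members tested, beside 46.3% of 4891 genes (23.7% higher and 22.6% lower). Cldn3 (1.56 ± 0.27, adjusted p = 2.7e-04), Ocln (1.60 ± 0.39, adjusted p = 0.0037) and Cldn11 (2.30 ± 0.38, adjusted p = 2.2e-04) were higher. Cldn14 (-3.59 ± 0.25, adjusted p = 6.7e-08), Ildr1 (-3.06 ± 0.28, adjusted p = 7.9e-07) and Cldn9 (-2.16 ± 0.24, adjusted p = 4.9e-06) were lower, again by edgeR. Each of the 6 differences had the same direction in all 6 libraries, and the ranges of the classes overlapped for Cldn11 alone. How many of all genes share these traits was not counted. For Cldn11 the free RNA, the glial markers and the unnamed cluster rich in Cldn11, given above, apply. Tjp1, at 0.49 ± 0.25, did not pass (adjusted p = 0.13).

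Nonsensory epithelial-like cells differed from SC-like cells in 5 of 7 members tested (19.4% of 5286 genes, 9.78% higher and 9.67% lower). They were higher in Cldn3 (1.63 ± 0.23, adjusted p = 4.3e-04) and lower in Ildr1 (-1.48 ± 0.26, adjusted p = 0.0018), Cldn9 (-0.87 ± 0.17, adjusted p = 0.0029) and Cldn14 (-0.93 ± 0.20, adjusted p = 0.0071), in each of the 6 libraries. Cldn11 was just past the threshold of 0.05 (1.40 ± 0.44, adjusted p = 0.046) and lost its call when any 1 of 5 libraries was left out. Ocln (0.96, adjusted p = 0.082) and Tjp1 (-0.22, 0.65) did not pass.

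The 2 linings themselves, compared in all 8 libraries, differed in 4 of 7 members (45.4% of 5717 genes, 22.7% higher and 22.6% lower in Reissner membrane-like cells). Cldn14 (-2.80 ± 0.28, adjusted p = 1.3e-07), Ildr1 (-1.72 ± 0.20, adjusted p = 8.7e-07) and Cldn9 (-1.51 ± 0.19, adjusted p = 2.4e-06) were lower in the Reissner membrane-like cells of each library, and Cldn11 was higher in 7 of 8 (1.30 ± 0.33, adjusted p = 0.0032). Cldn3 (-0.29, adjusted p = 0.21), Ocln (0.40, 0.25) and Tjp1 (0.44, 0.10) were not called. Cldn10 had too few counts for the test, with 19 UMIs in nonsensory epithelial-like cells against 0. The rate of the 19 UMIs was 4.23 times the floor of 3 UMIs in Reissner membrane-like cells, over all libraries. That figure leaves out the counting error of the 19 UMIs and the spread between libraries, so it is not a lower bound. These 3 class comparisons share libraries and cells, so their results are not independent.

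**Figure D2:**
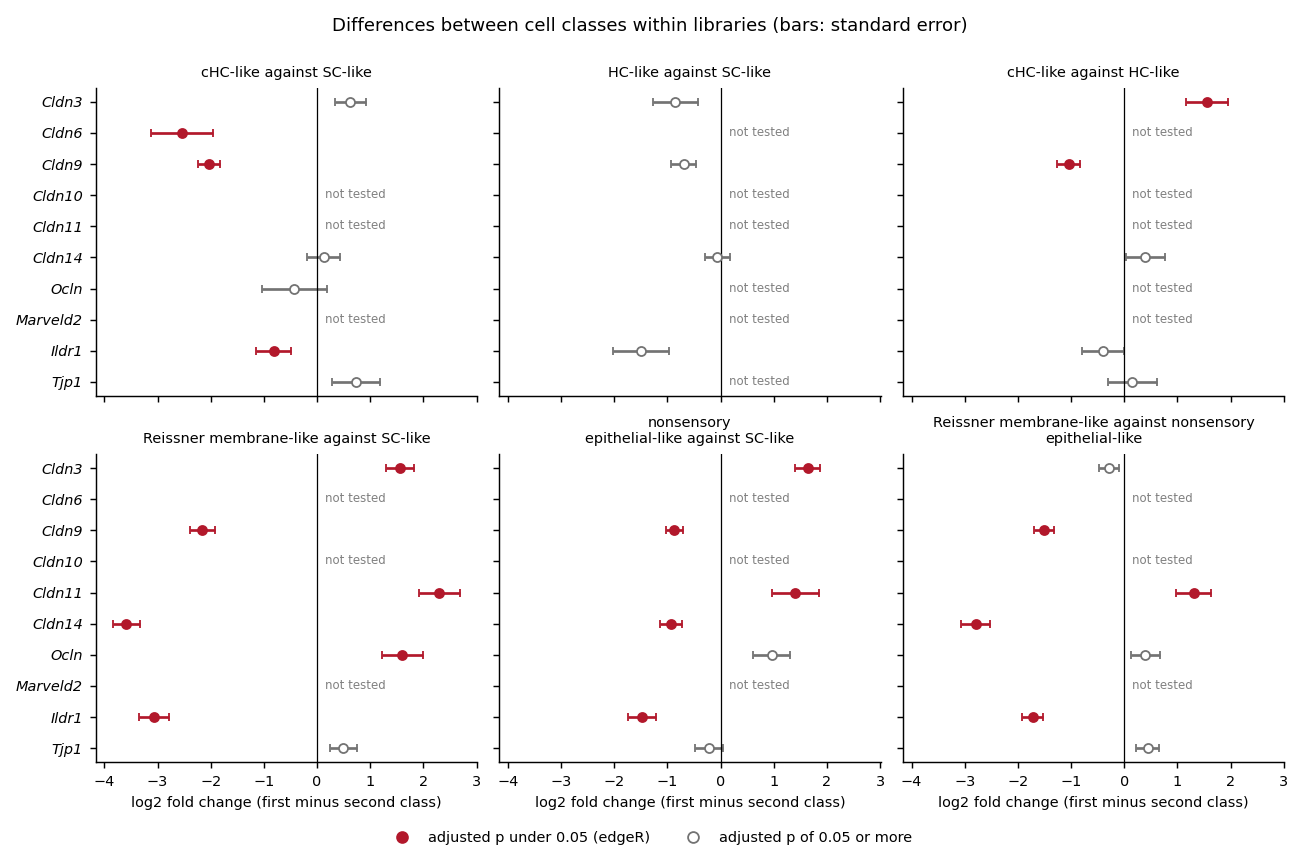
Log2 fold change (first minus second class) and standard error of each member tested in the 6 comparisons of classes within libraries, with filled red points where the edgeR adjusted p is under 0.05. Cldn14, Ildr1 and Cldn9 lie left of 0 in both panels that set Reissner membrane-like cells first, down to -3.59 for Cldn14, and Cldn3 lies right of 0 against SC-like cells at 1.56 and 1.63 in the Reissner membrane-like and nonsensory epithelial-like panels.

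The SC-like cells of Coch + Tmx P33 were next set against those of Coch P12, which asks how the supporting cells differ after tamoxifen and 3 weeks of further age. Cldn9 and Cldn6 rose and Ildr1 fell, out of 8 members tested. Over all 5965 genes tested, 6.20% were called, 3.27% higher and 2.93% lower. Cldn9 stood at 2669 and 1604 CPM against 998 and 835 (log2 fold change 1.20 ± 0.32, edgeR, adjusted p = 0.015). Ildr1 stood at 154 and 132 CPM against 360.0 and 649.7 (-1.81 ± 0.40, adjusted p = 0.0033). In both genes the values of the groups did not overlap, but the share of all genes without overlap was not counted. In the first Coch + Tmx P33 library 1 cell held 205 of the 591 Cldn9 UMIs.

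Cldn6 had 24 UMIs in 7 of 28 SC-like cells at Coch + Tmx P33, 17 of them in 5 of 16 cells of the first library and 7 in 2 of 12 cells of the second. In the first library 1 cell held 11 of the 17 UMIs, and in the second 1 cell held 4 of the 7. At Coch P12 there was 1 UMI in 39 cells, and the ratio of the pooled rates was 34.8 with a 95% counting interval of 5.67 to 1430. The edgeR test gave an adjusted p of 0.018. The other members were Cldn3 (log2 fold change 1.30 ± 0.49, adjusted p = 0.13), Cldn14 (-0.28, 0.83), Cldn11 (-0.62, 0.90), Ocln (1.75 ± 1.32, 0.58) and Tjp1 (-0.56, 0.73).

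All 3 calls were lost when the first Coch + Tmx P33 library was left out (adjusted p 0.67 for Cldn9 and 0.070 for Ildr1, with Cldn6 below the filter), and DESeq2 called Ildr1 alone. The call of Ildr1 was also lost without the second Coch + Tmx P33 library (adjusted p = 0.094), although its log2 fold change of -1.81 was -1.96 without the first and -1.67 without the second. The call of Cldn6 was lost without the first Coch P12 library (adjusted p = 0.22) or the third Coch + Tmx P26 library (0.052), which enters through the shared spread, all in edgeR. The SC-like cells of the 2 Coch + Tmx P33 libraries also held more of the converted hair cell markers, 677 and 1018 CPM summed over 10 genes, against 57.7 to 101 in the other 4 libraries. Their supporting cell markers summed to 24730 and 21460 CPM, within the range of the others. In the cHC-like cells themselves, Cldn9, Cldn6 and Ildr1 at P33 were each below the SC-like level in both libraries, as given above. The part of converted hair cell transcripts in these differences was not tested.

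**Figure D3:**
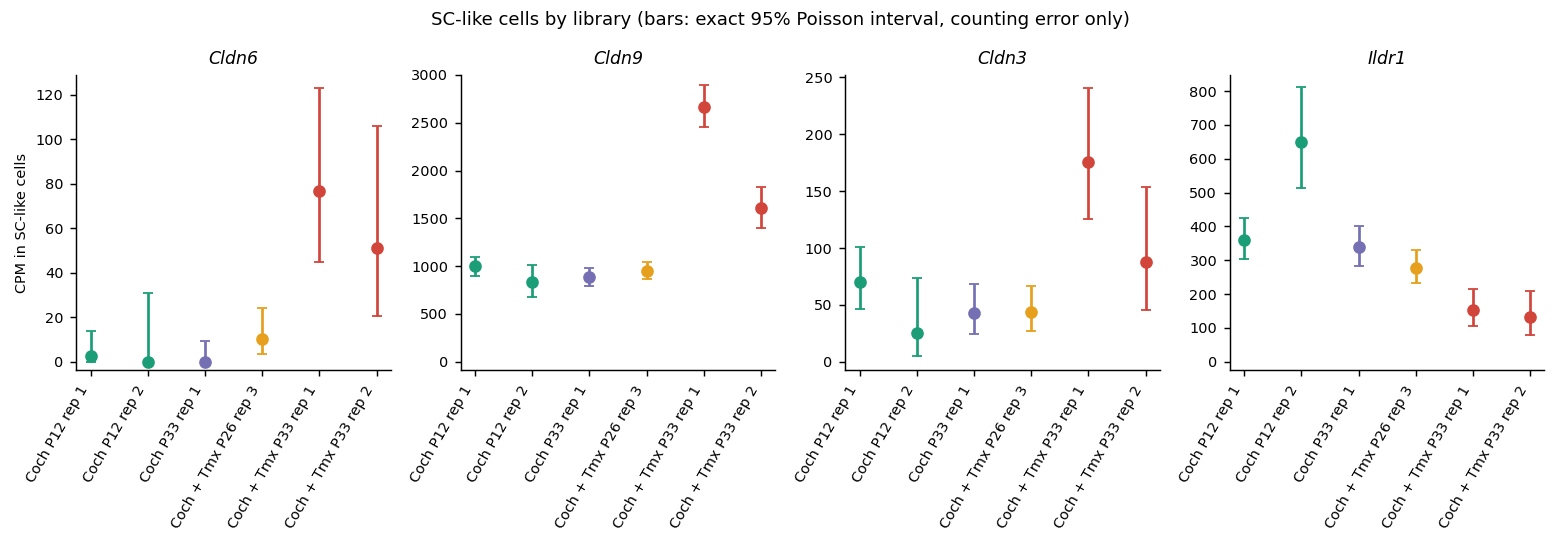
Levels in SC-like cells by library in CPM, with exact 95% Poisson intervals of the UMI count as bars, for Cldn6, Cldn9, Cldn3 and Ildr1. The 2 Coch + Tmx P33 libraries sit above all others for Cldn6 (76.8 and 51.3 CPM) and Cldn9 (2669 and 1604) and below all others for Ildr1 (154 and 132).

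At P33, where age is the same with and without tamoxifen, there was 1 Coch P33 library and thus no test. In SC-like cells the pooled Cldn9 level at Coch + Tmx P33 was 2263 CPM (exact Poisson 95% interval 2110 to 2424, counting error only) against 885 (795.5 to 983) at Coch P33. Cldn6 was at 67.1 CPM (43.0 to 99.8) against 0 UMIs, which allows up to 7.53 CPM at a count of 3. Ildr1 was at 145 CPM (109 to 190.5) against 339 (284 to 401), and Cldn3 at 142 (106 to 187) against 42.6 (24.8 to 68.3). Tjp1 was at 39.1 against 40.1 CPM. In nonsensory epithelial-like cells Cldn9 was at 1378 CPM (1319 to 1440) against 431 (374 to 494), and Ildr1 at 98.1 (82.7 to 116) against 104 (77.2 to 137). The intervals leave out the spread between libraries, and the 2 Coch + Tmx P33 libraries themselves had 2669 and 1604 CPM of Cldn9 in SC-like cells, so no difference between the groups is read from them.

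In Reissner membrane-like cells 0 of 8 members tested passed between Coch + Tmx P33 and Coch P12 (edgeR, 1.48% of 7185 genes, 0.473% higher at Coch + Tmx P33), and no unadjusted p was under 0.31. DESeq2 also called 0 of them. Between Coch + Tmx P26 and Coch P12 0 of 8 passed (1.04% of the genes, 0.237% higher and 0.807% lower), with an unadjusted p under 0.05 for Cldn11 only, and DESeq2 called 0. Its difference was -0.97 ± 0.40 (adjusted p = 0.39), which turned to 0.56 without the second Coch P12 library, where Cldn11 was at 232 CPM against 49.5 in the first. Cldn3 was steady in these cells, from 188 to 249 CPM over the 8 libraries.

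In nonsensory epithelial-like cells 0 of 9 members passed between Coch + Tmx P33 and Coch P12 (edgeR, 0.957% of 8043 genes, 0.261% higher and 0.696% lower) and 0 of 9 between Coch + Tmx P26 and Coch P12 (0.746%, 0.211% higher and 0.535% lower), and DESeq2 called 0 in both. The unadjusted p was under 0.05 for 2 members in the first comparison and for 0 in the second. Cldn9 stood at 1342 and 1395 CPM at Coch + Tmx P33 against 512 and 552 at Coch P12 (1.36 ± 0.51, adjusted p = 0.30), with the third Coch + Tmx P26 library lowest of all at 316. Cldn11 stood at 11.05 and 7.87 CPM against 25.2 and 94.0 (-2.70 ± 0.80, adjusted p = 0.15). The groups did not overlap in either gene, but the share of all genes without overlap was not counted, so nothing is read from it.

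The nonsensory epithelial-like class is not of 1 kind, and its clusters differ in number between libraries. A cluster led by Sprr1a, S100a6 and Lgals3 (127 cells) had Cldn9 between 767 and 2614 CPM over 5 libraries, whereas one led by Ucma, Padi1 and Epyc (280 cells) ran from 272 to 890.5 CPM over 7. Within the latter, Coch + Tmx P33 gave 890.5 and 814 CPM, the second Coch P12 library 490.4, Coch P33 392, and Coch + Tmx P26 635, 493 and 272. The third cluster, led by Tmprss9 and Fabp7 (54 cells), was found at Coch P12 only, where it made up 43 of 49 and 11 of 27 cells of the class. The mix of clusters in this class thus differs between groups, and its part in the differences between groups was not tested.

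The Sprr1a cluster had the highest mean of all clusters for Cldn9 (1863 ± 716 CPM, SD, n = 5). Its means of Cldn3 (356 ± 236) and Ocln (67.6 ± 50.8) were set by the first Coch + Tmx P26 library, with 753 and 150.7 CPM, against 152 to 354 and 25.3 to 78.4 in the other 4 libraries, so no rank is given for them. Cldn6 was highest in an unnamed epithelial cluster led by Agr3 and Alox12e (80 cells), at 49.0 ± 26.4 CPM (n = 6). This cluster also held Cldn9 at 487 to 1834 CPM and was absent at Coch P12. Marveld2 was highest in the HC-like cluster and Ildr1 in the SC-like cluster.

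**Figure D4:**
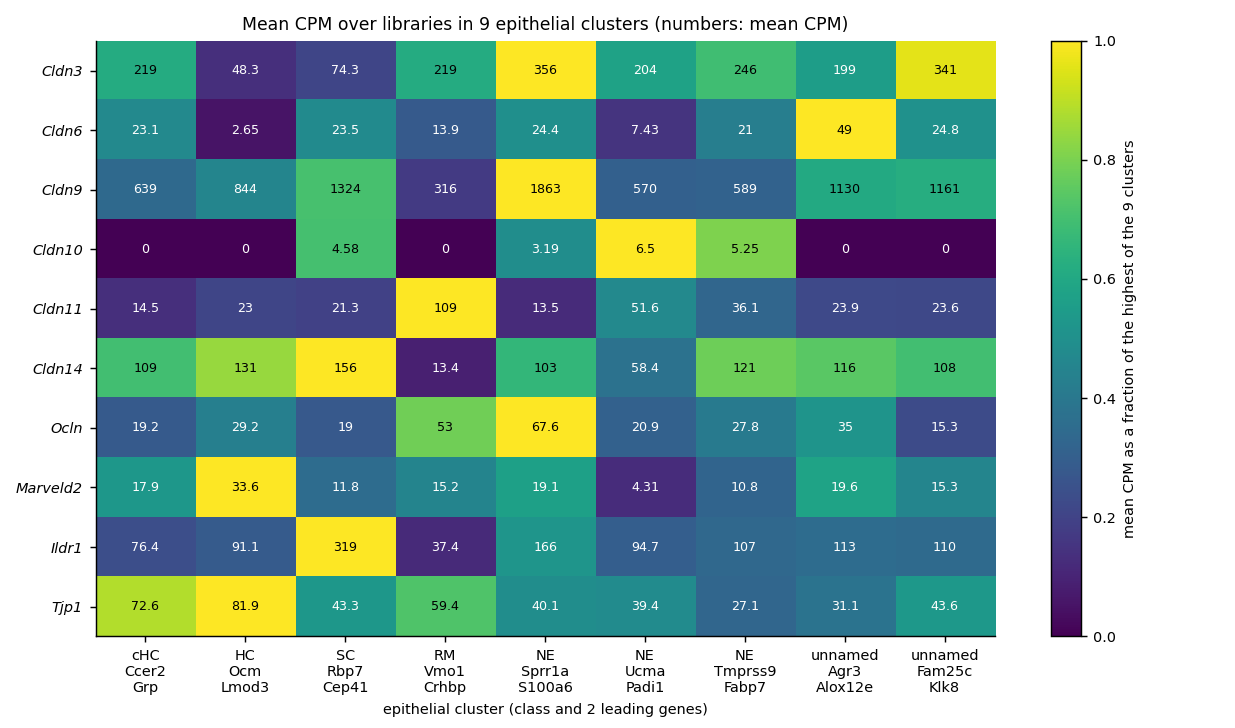
Mean CPM over libraries of the 10 genes (rows) in 9 epithelial clusters (columns, each with its class and 2 leading genes), shaded as a fraction of the highest cluster of the row. On a scale from dark (low) to bright (high), the Sprr1a cluster is brightest for Cldn9 (1863 CPM), Cldn3 and Ocln, the last 2 through 1 library (753 and 150.7 CPM), and the SC-like cluster for Ildr1.

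Within a library, the Cldn11 level of Reissner membrane-like cells lay above that of SC-like cells in 6 of 6 libraries and above that of nonsensory epithelial-like cells in 7 of 8. The exception was the third Coch + Tmx P26 library, with 48.4 against 70.4 CPM. The macrophage-like values, set beside them, moved from 2.62 to 196.9 CPM with no fixed place in the order.

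**Figure D5:**
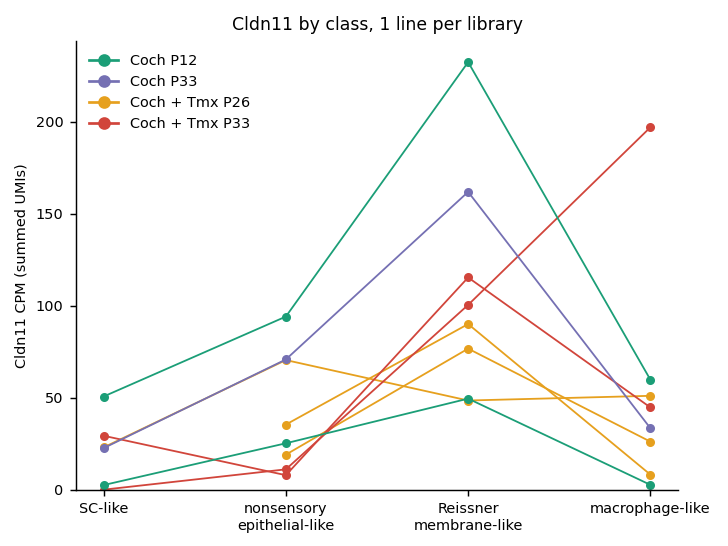
Cldn11 CPM in 4 classes, with 1 line per library coloured by group. Each of the 6 lines with both classes is higher at the Reissner membrane-like than at the SC-like cells, and the macrophage-like end of the first Coch + Tmx P33 line is highest of its class, at 196.9 CPM.

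The other junction genes gave a wider view. Of 56 listed, 25 could be tested between Reissner membrane-like and SC-like cells, and 12 were higher and 4 lower. Over all genes tested, 23.7% were higher and 22.6% lower. The median log2 fold change was 0.62 against 0.03 over all genes tested. Cldn8, another barrier-forming claudin (6.37), the scaffold paracingulin Cgnl1 (4.58) and Amotl1 (2.49) were the largest increases, and nectin-3 (Pvrl3, -3.57), Cldn23 (-2.41) and Marveld3 (-2.26) the largest decreases. Against nonsensory epithelial-like cells, Reissner membrane-like cells had 12 higher and 8 lower of 30, beside 22.7% and 22.6% of all genes tested. Cldn8 (2.63), Amotl1 (1.95) and Prkci (1.91) led upwards and Cldn23 (-3.11), Marveld3 (-1.73) and Cxadr (-1.52) downwards. Nonsensory epithelial-like cells against SC-like cells had 5 higher and 2 lower of 25, beside 9.78% and 9.67% of all genes tested. Cgnl1 (4.46), Cldn8 (3.88) and Lsr (1.46), the tricellular protein angulin-1, were on top, and Pvrl3 (-2.41) and Marveld3 (-0.76) were the 2 that were lower.

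In cHC-like against SC-like cells, 5 of 24 other junction genes were higher and 7 lower, beside 20.9% and 17.1% of all genes tested. Among them nectin-1 (Pvrl1, 3.40), Mpdz (2.16) and β-catenin (Ctnnb1, 1.81) were highest and Cldn23 (-3.19), Cldn7 (-2.34) and Ctnnd1 (-2.09) lowest. Against HC-like cells, 2 of 25 were higher, Pvrl1 (2.14) and E-cadherin (Cdh1, 1.62), beside 10.5% of all genes tested. Of the same 25, 10 were lower, beside 10.7% of all genes, with Cxadr (-3.35), cingulin (Cgn, -3.05) and Magi3 (-2.89) the most so. In HC-like against SC-like cells 5 of 14 were higher, led by Cgn (2.53), plakoglobin (Jup, 1.99) and Cxadr (1.66), and Cdh1 (-1.11) was lower. Of all 2045 genes tested there, 26.2% were called, 15.3% higher and the rest lower. Between Coch + Tmx P33 and Coch P12 in SC-like cells 3 of 25 rose, Cldn7 (1.93), Cdh1 (1.91) and Ybx3 (1.66), and 0 fell in edgeR. Of all genes tested, 3.27% rose and 2.93% fell. In Reissner membrane-like and nonsensory epithelial-like cells 0 of 35 and 0 of 39 were called in each comparison between groups. Of all genes tested, 1.04% to 1.48% and 0.746% to 0.957% were called there.

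The genes whose log2(CPM + 1) was most like that of a member were found over 57 sums of 13 named classes of all kinds, so that high correlations mostly follow the division into epithelial and other cells. Left out were the unnamed clusters (3422 cells). Among them were the Dcn cluster rich in Cldn11 and the Npy cluster where Tjp1 was highest, both described at the end. Cldn3 (Pearson r = 0.967) and Cldn9 (0.944) were both most like Cldn7, and Cldn9 and Ildr1 shared Marveld3 (0.936 and 0.933), a relative of tricellulin. Ildr1 was next most like Mal2 (0.925) and S100a1 (0.923), the latter a supporting cell marker. Cldn6 was most like the keratins Krt8 (0.872) and Krt18 (0.868), Ocln like Fzd6 (0.866), Marveld2 like Eps8l2 (0.826), Cldn14 like Rimklb (0.882) and Tjp1 like Creb3l2 (0.829). Cldn11 was most like Pcdh9 (0.795), Bfsp2 (0.780) and the myelin gene Mag (0.757), and its correlation with the other members ran from -0.087 to 0.299. Between members the highest correlation was that of Cldn9 with Ildr1 (0.901). The sums share libraries and depth, and no test was made.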

How the data were processed

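The 8 10x Chromium 3′ (v2 chemistry) libraries were sequenced by the authors, who deposited raw UMI counts per gene and cell, made with Cell Ranger on mm10; its version is not given in the sources used here. The members and gene lists were chosen with earlier results of these data known.

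Barcodes with at least 500 genes and under 25% mitochondrial UMIs were kept, and the 53 with the highest Scrublet scores (0.8% per 1000 barcodes of a library) were removed as doublets. Cells were clustered with scanpy 1.11.5 (2000 variable genes, 30 components, resolution 1.0) without junction genes and named from markers, so a class need not match the study's own. UMIs were summed per library and class of at least 5 cells and tested with edgeR 4.0.16 (TMM, filterByExpr, quasi-likelihood F test, Benjamini-Hochberg, threshold 0.05). Class comparisons had the library as a block, while group comparisons used 1 fit of all groups per class without a block. All 10 members were named in each comparison, and of the other junction genes at most the 3 largest fold changes called in each direction; likeness needed 20 CPM in 2 sums. Alternatives were DESeq2 1.42.0, RLE scaling, no filter, other cell minimums, under 10% mitochondrial UMIs, other clusterings, no block or a replicate block (the latter without the Coch P33 library), and leaving out libraries. The fits were run on simulated data with the same spread for all genes, which does not show how they behave at the spread of these libraries. At most 2 barcodes were shared between libraries. Intervals cover counting error only, and the limit set by a count of 0 (3 UMIs) ranged from 6.27 to 25.3 CPM in the SC-like sums. Member positions are from the RefSeq annotation of GRCm38.p6; no sequence was read.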

Additional observations from a re-analysis of the deposited data

Results flagged for a closer look

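The members were scanned for library values that separated in opposite directions in 2 classes, so the lack of overlap was the rule of choice and not a result. The share of all genes that would meet this rule was not counted. For Cldn6, the libraries of Coch + Tmx P33 and Coch P12 moved in opposite directions in 2 classes. The mean of Coch + Tmx P33 minus that of Coch P12 was 62.8 CPM in SC-like cells and -14.2 CPM in Reissner membrane-like cells, with no overlap between the groups in either class. In Reissner membrane-like cells 1 cell held 5 of the 7 UMIs of the first Coch P12 library and 1 cell 10 of the 11 UMIs of the second, and in SC-like cells 1 cell held 11 of the 17 UMIs of the first Coch + Tmx P33 library. For Ildr1, the mean of Coch + Tmx P26 minus that of Coch P12 was -18.1 CPM in Reissner membrane-like cells and 38.5 CPM in nonsensory epithelial-like cells, again without overlap. The difference between the 2 classes was not tested in either gene. Within the classes, the Ildr1 comparisons did not pass and Cldn6 had too few counts in Reissner membrane-like cells to be fitted.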

How the results depend on the processing

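Of the members' values recomputed under the alternatives, 592 kept their direction and side of the threshold, 32 lost a call, 21 gained one and 19 changed sign. The calls of Cldn3, Ocln, Cldn11, Cldn9, Cldn14 and Ildr1 between Reissner membrane-like and SC-like cells, and of Cldn14, Ildr1, Cldn9 and Cldn11 between Reissner membrane-like and nonsensory epithelial-like cells, held under each alternative run, except that Ocln had too few counts to be tested between the first 2 under 10% mitochondrial UMIs, where 5 members were called in place of 6.

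Counts of members called moved as follows. In cHC-like against SC-like cells DESeq2 called 1 in place of 3, and the joint fit 4, of which 2 were not among the 3. In HC-like against SC-like cells, with 0 called, no filter gave 3, no replicate block 1, a minimum of 3 cells 2, the joint fit of 5 classes 3, and leaving out 1 library 0 to 1. In cHC-like against HC-like cells, with 2 called, DESeq2 and a minimum of 3 cells gave 0, and the joint fit, with or without either library, 1. Nonsensory epithelial-like against SC-like cells gave 3 in place of 5 without the block. In SC-like cells Coch + Tmx P33 against Coch P12 gave 1 with DESeq2 or under 10% mitochondrial UMIs, and 0 to 3 with 1 library left out, in place of 3. For Coch + Tmx P26 against Coch P12 in Reissner membrane-like cells leaving out 1 library gave 0 to 1 (Cldn11, adjusted p = 0.0065 in edgeR without the first Coch P12 library). In nonsensory epithelial-like cells Coch + Tmx P33 against Coch P12 gave 1 without a filter and 0 to 1 with 1 library left out.

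Signs changed for members that were not called, and for Cldn6. In cHC-like against SC-like cells, Cldn6 ran from 0.26 to 1.41 in the joint fit with 1 library left out, Cldn14 was -0.45 with a minimum of 3 cells, -0.33 in the joint fit and -0.74 to -0.36 with 1 library left out of it, and Ocln was 0.16 in the joint fit and 0.20 without either library. In cHC-like against HC-like cells, Cldn14 was -0.047 with a minimum of 3 cells and -0.17 to 0.13 in the joint fit with 1 library left out, Ildr1 was 0.015 in the joint fit and -0.15 to 0.31 with 1 library left out, and Tjp1 was -0.0013 and -0.10 to 0.02. Leaving out 1 library gave -0.14 to 0.0044 for Cldn14 in HC-like against SC-like cells, -5.41 to 2.12 for Cldn11 in SC-like cells between Coch + Tmx P33 and Coch P12, and -1.65 to 0.56 for Cldn11 in Reissner membrane-like cells between Coch + Tmx P26 and Coch P12. The causes were not tested.

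Same-numbered libraries of different groups correlated by -0.11 to 0.15 in their deviations, and the labels do not say that a number marks a shared day, so the numbers were not taken as a pairing. The setting with the replicate block also left the Coch P33 library out of the fit. With it, 2 members, Cldn9 and Cldn11, were called in nonsensory epithelial-like cells between Coch + Tmx P33 and Coch P12, in place of 0. In SC-like cells this setting gave 4 in place of 3 (Cldn3 was added, adjusted p = 0.043 in edgeR), and in the other comparisons of groups it changed no call. The parts of the block and of the left-out library in these calls were not tested. Over all genes, DESeq2 called fewer than edgeR in cHC-like against SC-like cells (407 and 2195), cHC-like against HC-like (244 and 1175), SC-like cells between Coch + Tmx P33 and Coch P12 (100 and 370), and Reissner membrane-like cells (50 and 106 for P33, 32 and 75 for P26), and more in nonsensory epithelial-like cells at P26 (97 and 60).

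A minimum of 10 cells, and under 10% mitochondrial UMIs for HC-like cells, left too few libraries for the small classes and were not run there, and fits of 2 pairs could not lose a library except within the joint fit, which was added after seeing the data, like the minimum of 3 cells. Coch + Tmx P26 against Coch P12 was not fitted in SC-like cells, since only the third library had 5 or more of them. At a depth of 357919 UMIs for SC-like cells of Coch + Tmx P33 in all, differences in Ocln, Marveld2, Cldn6 and Cldn10 rest on few molecules.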

Other observations

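Some members were higher outside the 5 classes than in them. Cldn11 averaged 2027 ± 195 CPM (SD, n = 6 libraries) in an unnamed cluster led by Dcn, Hgd and Gpr83 (429 cells), above its highest value of 232 CPM in Reissner membrane-like cells. Tjp1 was highest in an unnamed cluster led by Npy, Nov and Bhmt2 (655 cells), at 450.5 ± 142 CPM (n = 8), and next in pericyte or smooth muscle-like cells (387 ± 157 CPM, n = 3). Cldn3 in an unnamed epithelial cluster led by Fam25c, Klk8 and Ano1 (88 cells) was at 341 ± 63.1 CPM in the 2 Coch P12 libraries.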
